A study of Homo sapiens with 12 samples.

Results

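The 4 human HOX gene clusters were examined as stretches of accessible chromatin in G401 rhabdoid tumour cells. All peaks of 12 ATAC-seq lists that overlapped a fixed window around each cluster were taken, and peaks of different libraries that overlapped by at least 1 bp were merged into regions. The windows, in GRCh37 (hg19), were chr7:27122000-27260000 for HOXA, chr17:46596000-46816000 for HOXB, chr12:54322000-54460000 for HOXC and chr2:176947000-177065000 for HOXD. They held 737 of 742200 peaks and 157 of 187088 merged regions of the genome, with 40 regions in HOXA, 59 in HOXB, 41 in HOXC and 17 in HOXD. The rule uses position alone; the clusters were picked with earlier results of these data known.

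ATAC-seq marks accessible DNA by the insertion of sequencing adapters with a transposase. G401 is an established cell line, and all 12 libraries share its labelled genotype, loss of both copies of SMARCB1, which encodes a core member of the chromatin remodelling complexes known as SWI/SNF. Doxycycline was given for 24 h to induce GFP, the control, or SMARCB1, together with the vehicle DMSO or with dBRD9-A, a degrader of BRD9, which is a subunit of the non-canonical form of SWI/SNF. The 4 groups, GFP DMSO, GFP dBRD9-A, SMARCB1 DMSO and SMARCB1 dBRD9-A, had 3 libraries each. The comparisons ask what changes in accessibility with SMARCB1, what changes with dBRD9-A, and whether the effect of dBRD9-A differs between GFP and SMARCB1 cells. Peak lists do not show how much SMARCB1 or BRD9 protein the cells held. The labels do not say that libraries of a group came from separate cultures, so p-values measure the spread between these libraries, which may be technical. In bulk chromatin, a peak open in more cells and a peak more open in each cell cannot be told apart.

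HOX genes encode homeodomain transcription factors that give cells their position along the body axis. Within a cluster the genes lie in the order in which they are switched on along that axis, and the paralogous genes of different clusters share a number. Polycomb complexes hold clusters or parts of clusters silent, Trithorax-group proteins keep them active, and SWI/SNF, whose fly homologue was found among Trithorax-group genes, opposes Polycomb in this setting. The windows span 39 HOX genes, 11 in HOXA, 10 in HOXB, 9 in HOXC and 9 in HOXD. The RefSeq gene table used for these counts (GRCh38.p14) is of another build than the peaks, so no region was assigned to a gene and positions are given as kb from the low-coordinate start of each window.

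The clusters also hold 8 microRNA genes, which lie among the HOX genes. Among them are members of the miR-196 family and, of the miR-10 family, MIR10A in HOXB and MIR10B in HOXD. A few mature forms are shown to make plain what paralogous clusters share. Sequences are from RefSeq (GRCh38.p14), written 5′ to 3′, with the seed (bases 2 to 8) in capitals.
miR-196b-5p (HOXA): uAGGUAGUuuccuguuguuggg
miR-196a-5p (HOXB and HOXC): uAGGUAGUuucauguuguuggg
miR-10a-5p (HOXB): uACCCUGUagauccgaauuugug
The miR-196 forms of 3 clusters carry the same seed, AGGUAGU, and miR-10a-5p another one. No accessibility value is tied to these genes here.

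The lists held 33428 to 96572 peaks, with 33428 to 50089 in GFP and 71169 to 96572 in SMARCB1 libraries. Read totals were not analysed here. Depth was read from the background pileup, the number of fragments expected at a position by chance (whether the peak caller counted fragments or extended reads is not given in the sources used here), which ran from 0.0383 to 0.0784 in GFP and from 0.0487 to 0.111 in SMARCB1 libraries. SMARCB1 lists are therefore longer and mostly deeper than GFP lists, and this moves with every count of peaks below. No 2 libraries of a group were near copies of each other: 1.78% to 8.72% of the pileups at regions found in all 12 lists were equal between them.

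The HOX windows held 25.6 regions per 100 kb, against 12.4 per 100 kb in the 500 kb to either side of each window. HOXA had 29.0, HOXB 26.8 and HOXC 29.7 regions per 100 kb, while HOXD had 14.4, near the value of the flanks. A peak in all 12 lists was found at 19 of the 157 regions (12.1%, against 9.68% of all regions): 7 in HOXA, 6 in HOXB, 4 in HOXC and 2 in HOXD. At the other end, 45 regions had a peak in 1 library (28.7%, against 41.0%). Regions with a peak in SMARCB1 libraries but in no GFP library numbered 60 (38.2%, against 62.3%), and those with a peak in GFP libraries but in no SMARCB1 library 23 (14.6%, against 11.5%). The clusters differed among themselves in these counts: 12 of 17 HOXD regions had no GFP peak and 0 lacked a SMARCB1 peak, whereas in HOXC 11 of 41 had no GFP peak and 10 had no SMARCB1 peak. Regions with no GFP peak thus made up 70.6% of HOXD, near the 62.3% of all regions, and 26.8% of HOXC. Of them, 7 in HOXD and 7 in HOXC had a peak in 1 library.

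**Figure D1:**
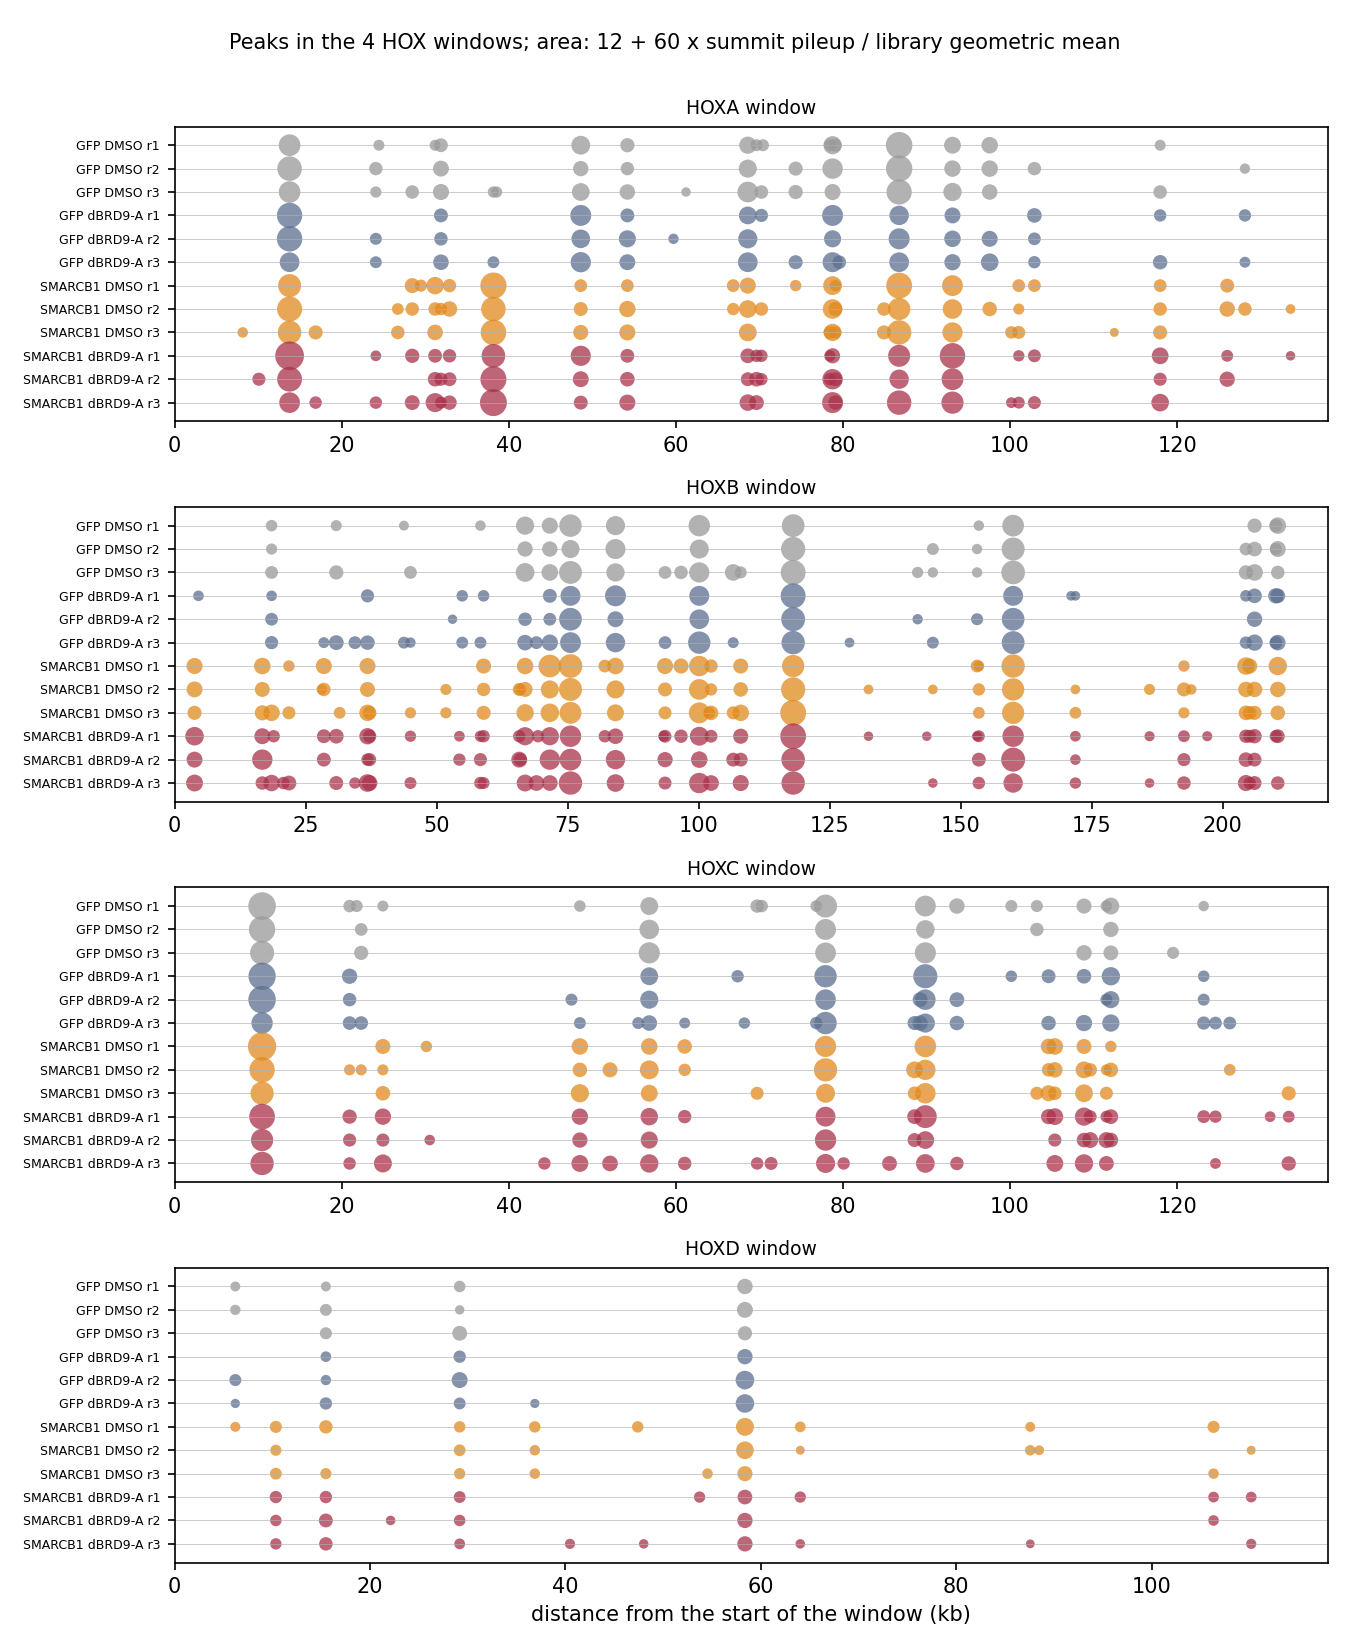
Each row is a library and each point a merged region in which that library had a peak, placed by its distance in kb from the start of the window; the area of a point rises with the summit pileup relative to the library's geometric mean at shared regions. The columns with a point in every row are the 19 regions found in all 12 libraries, not all of them large. At 38.2 kb in HOXA large points stand in all 6 SMARCB1 rows with small points in 2 GFP rows.

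The number of peaks in each window was higher on average in SMARCB1 libraries, by less than the growth of the whole list in 3 clusters. HOXA had 16, 13 and 17 peaks in GFP DMSO, 12, 12 and 16 in GFP dBRD9-A, 20, 24 and 19 in SMARCB1 DMSO, and 20, 18 and 20 in SMARCB1 dBRD9-A libraries. The lowest SMARCB1 library stood above the highest GFP library. Means were 14.3 ± 2.25 and 20.2 ± 2.04 (SD, n = 6 each), a ratio of 1.41. HOXB had 15, 14 and 20 peaks in GFP DMSO, 17, 12 and 25 in GFP dBRD9-A, 25, 29 and 29 in SMARCB1 DMSO, and 39, 24 and 32 in SMARCB1 dBRD9-A libraries. The 2 inductions overlapped at GFP dBRD9-A replicate 3 and SMARCB1 dBRD9-A replicate 2. The HOXB means were 17.2 ± 4.71 and 29.7 ± 5.43 (SD, n = 6 each), a ratio of 1.73.

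HOXC had 18, 7 and 8 peaks in GFP DMSO, 11, 11 and 20 in GFP dBRD9-A, 12, 18 and 15 in SMARCB1 DMSO, and 20, 15 and 20 in SMARCB1 dBRD9-A libraries. The inductions overlapped widely there, with means of 12.5 ± 5.32 and 16.7 ± 3.20 (SD, n = 6 each) and a ratio of 1.33. HOXD had 4, 4 and 3 peaks in GFP DMSO, 3, 4 and 5 in GFP dBRD9-A, 10, 9 and 7 in SMARCB1 DMSO, and 9, 6 and 10 in SMARCB1 dBRD9-A libraries. Every SMARCB1 library exceeded every GFP library in HOXD, with means of 3.83 ± 0.753 and 8.50 ± 1.64 (SD, n = 6 each) and a ratio of 2.22. The whole lists grew by a ratio of 2.18, so the HOXD ratio was close to that of the genome and the others lay below it.

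As a share of the list, the 4 windows together had 12.2 ± 1.13 peaks per 10000 peaks in GFP and 8.84 ± 0.616 in SMARCB1 libraries (SD, n = 6 each). The GFP libraries lay between 10.8 and 13.5 and the SMARCB1 libraries between 8.15 and 9.97, without overlap. By cluster, the mean shares in GFP and SMARCB1 libraries were 3.72 and 2.39 in HOXA, 4.42 and 3.49 in HOXB, 3.13 and 1.96 in HOXC, and 0.987 and 1.002 in HOXD. With the summit pileups of called peaks thinned to an equal background pileup, 1 measure of depth that can only remove peaks, the 4 windows had 43.7 ± 7.03 peaks in GFP and 58.8 ± 4.54 in SMARCB1 libraries (SD, n = 6 each), a ratio of 1.35 beside 1.72 for the whole lists. With every list cut to the length of the shortest, the SMARCB1 mean was lower than the GFP mean by 10.5 peaks, so the direction of the count turns with the list length. These counts were not tested, since a sum over chosen windows gets no p. Between treatments the means differed by 3.00 peaks in GFP and 5.33 in SMARCB1 libraries, less than 1 SD of any group.

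**Figure D2:**
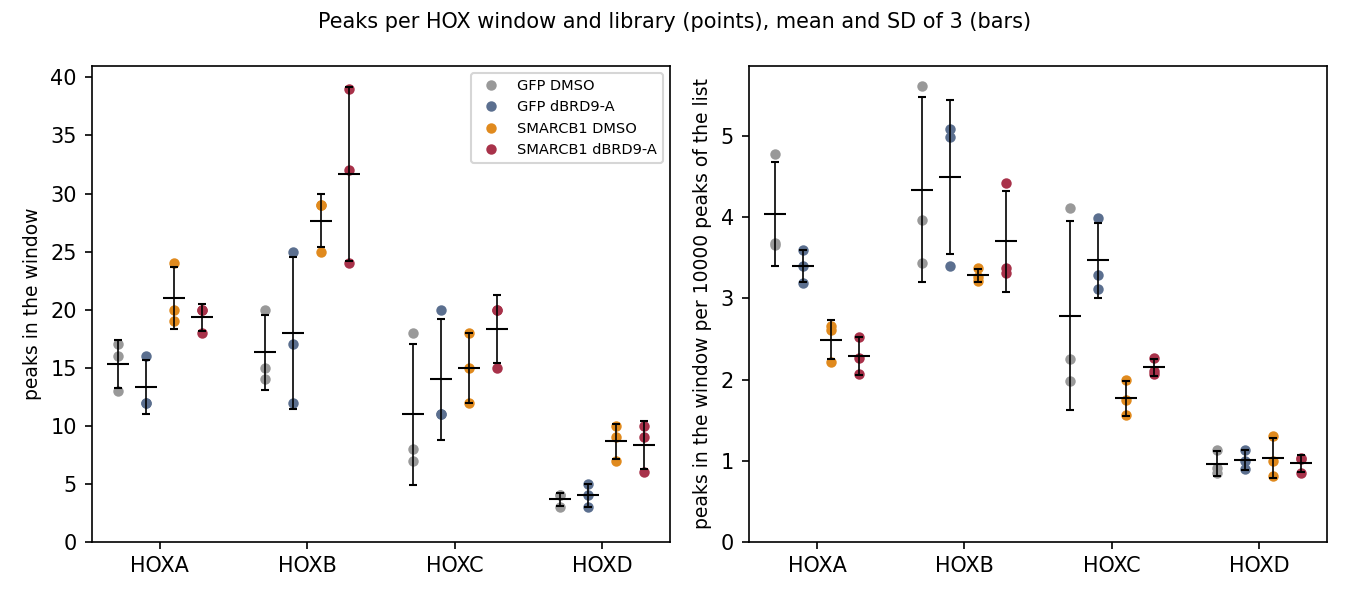
Peaks per window in each library (left) and per 10000 peaks of the library's list (right); points are libraries, bars the mean and SD of the 3 libraries of a group. Counts are higher in SMARCB1 libraries in all 4 means on the left, while on the right the means of HOXA, HOXB and HOXC are lower and those of HOXD are close.

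Presence was then compared region by region. Each region with a peak in 2 to 10 libraries was tested with a two-sided exact permutation of presence within treatment (400 arrangements, smallest p 0.005), with Benjamini-Hochberg adjustment over 88398 regions of the genome. Of 91 HOX regions tested, 5 were called at an adjusted p of 0.0321 (5.49%, against 15.4% of all tested regions), all with a peak in 6 of 6 SMARCB1 and 0 of 6 GFP libraries. None was called in the other direction (0.131% of all tested regions). At an unadjusted p below 0.05 there were 12 HOX regions with more SMARCB1 libraries (25.9% of all tested regions) and 0 with fewer (0.482%). HOXB had 3 of the 5 called regions, HOXC 1, HOXD 1 and HOXA 0. Without GFP DMSO replicate 1 there were 8 calls, whose share over all tested regions is not given here. The other 7 of the 12 had an exact p of 0.02 and an adjusted p of 0.0757, and 3 of them lay in HOXA.

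The HOXB region at 3.8 kb (chr17:46599585-46599980) had summit pileups of 13, 14 and 10 fragments in SMARCB1 DMSO and 23, 10 and 18 in SMARCB1 dBRD9-A libraries, and no GFP peak. The summit pileup is the number of fragments stacked at the highest point of a peak, recovered from the authors' fold and −log10 p. The HOXB region at 16.7 kb (chr17:46612581-46612855) had 14, 12 and 12 fragments in SMARCB1 DMSO and 16, 18 and 10 in SMARCB1 dBRD9-A libraries. Both lie near the low-coordinate end of the window, and neither had a peak in any GFP library. The HOXB region at 192.6 kb (chr17:46788538-46788673) was weaker, with 5, 10 and 5 fragments in SMARCB1 DMSO and 7, 6 and 10 in SMARCB1 dBRD9-A libraries. The HOXC region at 105.4 kb (chr12:54427240-54427485) had 14, 13 and 9 fragments in SMARCB1 DMSO and 18, 6 and 18 in SMARCB1 dBRD9-A libraries. The HOXD region at 10.4 kb (chr2:176957123-176957586) had 6, 5 and 6 fragments in SMARCB1 DMSO and 8, 4 and 6 in SMARCB1 dBRD9-A libraries. In all 5 regions the pileups of the treatments overlapped. A missing peak does not show that the chromatin was closed, least of all at pileups as low as those of the HOXD region. With the same thinning no region of the genome was called, with 9 of 79 HOX regions higher (19.2% of all tested) and 1 lower (0.982%) at an unadjusted exact permutation p below 0.05. At 50% cover of the region none was called either, with 8 of 88 higher (17.0%) and 2 lower (0.415%) at an unadjusted exact permutation p below 0.05. The smallest p of this test is 0.005, so no call appears unless a large share of tested regions reaches it. The absence of calls in these settings thus does not show that each region lost its difference. In lists of equal length 1 of 47 HOX regions was called with more SMARCB1 libraries (9.0% of all tested) and 3 with fewer (2.44%).

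Within each treatment a region was counted as gained or lost when all 3 libraries of a group had a peak there and none of the 3 compared with them did, with no test, since 3 against 3 cannot give an exact p below 0.1. In DMSO, 11 of 124 HOX regions were gained with SMARCB1 (8.87%, against 15.0% of all regions) and 0 were lost (0.429%). In dBRD9-A, 12 of 134 were gained (8.96%, against 13.5%) and 0 were lost (0.385%). The 5 regions above were gained in both treatments. In DMSO the others were chr17:46632705-46632879, chr17:46654787-46655109 and chr17:46698252-46698457 in HOXB, chr7:27222894-27223196 in HOXA, chr12:54426469-54426751 in HOXC and chr2:176983757-176983961 in HOXD. In dBRD9-A they were chr7:27153054-27153289, chr7:27154809-27154984 and chr7:27191595-27191694 in HOXA, chr17:46633142-46633242, chr17:46703814-46704222 and chr17:46749349-46749577 in HOXB, and chr12:54346751-54347093 in HOXC. In HOXA, the region at 101.0 kb (chr7:27222894-27223196) had 7, 5 and 8 fragments in SMARCB1 DMSO and 6 and 7 in 2 SMARCB1 dBRD9-A libraries, and no GFP peak. The HOXB region at 36.8 kb (chr17:46632705-46632879) had 13, 12 and 15 fragments in SMARCB1 DMSO and 17, 5 and 20 in SMARCB1 dBRD9-A, beside 6 and 14 in 2 GFP dBRD9-A libraries. Without SMARCB1 DMSO replicate 3 the count in DMSO was 18, and without SMARCB1 dBRD9-A replicate 2 the count in dBRD9-A was 20. The rule then asks only for a peak in all remaining libraries of the group, so these counts could only stay or rise. Their share over all regions is not given here.

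Presence takes no account of how high a peak is. One region of HOXA, named after its values were seen, was conspicuous for its height. How many regions of the genome rise as much is not given here. The HOXA region at 38.2 kb (chr7:27159999-27160307) had 40, 38 and 41 fragments in SMARCB1 DMSO and 40, 31 and 52 in SMARCB1 dBRD9-A libraries. GFP DMSO replicate 3 had 4 fragments, GFP dBRD9-A replicate 3 had 8, and the other 4 GFP libraries had no peak. In units of the library's geometric mean over regions shared by all 12 lists, the SMARCB1 libraries stood at 2.30 ± 0.235 (SD, n = 6) and the 2 GFP peaks at 0.290 and 0.345. The authors' fold over background was 22.2 to 27.3 in SMARCB1 libraries, and 4.14 and 6.85 at the 2 GFP peaks. By presence alone this region had an exact p of 0.08.

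A second exact test, added after the data had been seen, used presence and height together: the same permutation of log2 scaled pileup plus 0.1, with a missing peak at 0, over 110379 regions found in at least 2 libraries. Of 112 HOX regions, 14 were higher (12.5%, against 16.8% of all regions) and 2 lower (1.79%, against 0.978%) in SMARCB1 libraries at an adjusted exact permutation p of 0.0282. All 5 regions called by presence were among the 14. This was fixed in advance, as a peak in every SMARCB1 and no GFP library gives the smallest p in either test. HOXA contributed 3 of them, at 31.2, 38.2 and 93.1 kb, HOXB 7, HOXC 3 and HOXD 1. The HOXA region at 31.2 kb (chr7:27153054-27153289) had 16, 9 and 13 fragments in SMARCB1 DMSO and 11, 8 and 24 in SMARCB1 dBRD9-A libraries, against 6 in GFP DMSO replicate 1 and no other GFP peak. The HOXC region at 48.5 kb (chr12:54370292-54370714) had 14, 11 and 19 in SMARCB1 DMSO and 17, 9 and 18 in SMARCB1 dBRD9-A, against 7 and 8 in 2 GFP libraries. The HOXC region at 24.9 kb (chr12:54346751-54347093) had 11, 5 and 11, and 17, 6 and 21, against 6 in 1 GFP library. In HOXB the further regions lay at 93.6 kb (chr17:46689439-46689716), 108.0 kb (chr17:46703814-46704222), 153.5 kb (chr17:46749349-46749577) and 204.4 kb (chr17:46800327-46800536). The last had 6 and 8 fragments in GFP DMSO, 4 and 9 in GFP dBRD9-A, 16, 13 and 11 in SMARCB1 DMSO, and 10, 8 and 16 in SMARCB1 dBRD9-A libraries.

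The 2 regions that were lower lay in HOXA and HOXC. In HOXA, the region at 31.9 kb (chr7:27153758-27153987) had 12, 11 and 11 fragments in GFP DMSO and 7, 7 and 17 in GFP dBRD9-A libraries, against 7 in SMARCB1 DMSO replicate 2 and 6 and 7 in SMARCB1 dBRD9-A replicates 2 and 3. The HOXC region at 112.1 kb (chr12:54433952-54434180) had 20, 10 and 9 in GFP DMSO and 14, 13 and 22 in GFP dBRD9-A, against 5 and 11 in 2 SMARCB1 DMSO and 13 and 8 in 2 SMARCB1 dBRD9-A libraries. Both had a neighbour that went the other way. The HOXA region lies 468 bp from the region at 31.2 kb, which was higher in SMARCB1 libraries. The HOXC region lies 322 bp from chr12:54433439-54433629, which had a peak in 2 GFP and 5 SMARCB1 libraries. In all, 46 pairs of adjacent HOX regions lay within 1000 bp of each other. In 17 of them one region had more GFP and the other more SMARCB1 libraries, and in 17 both had more SMARCB1 libraries (37.0% in each case). Among all 32696 such pairs of the genome the shares were 17.5% and 52.0%. These pairs were counted after single ones had been seen, and the difference was not tested. Some of the opposite pairs hold a region with a peak in only 1 library. Taken region by region, 26.8% of HOX regions had more GFP libraries, against 16.2% of all regions. More SMARCB1 libraries were found at 56.7% and 70.8%. The shares of pairs were not adjusted for these leanings.

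**Figure D3:**
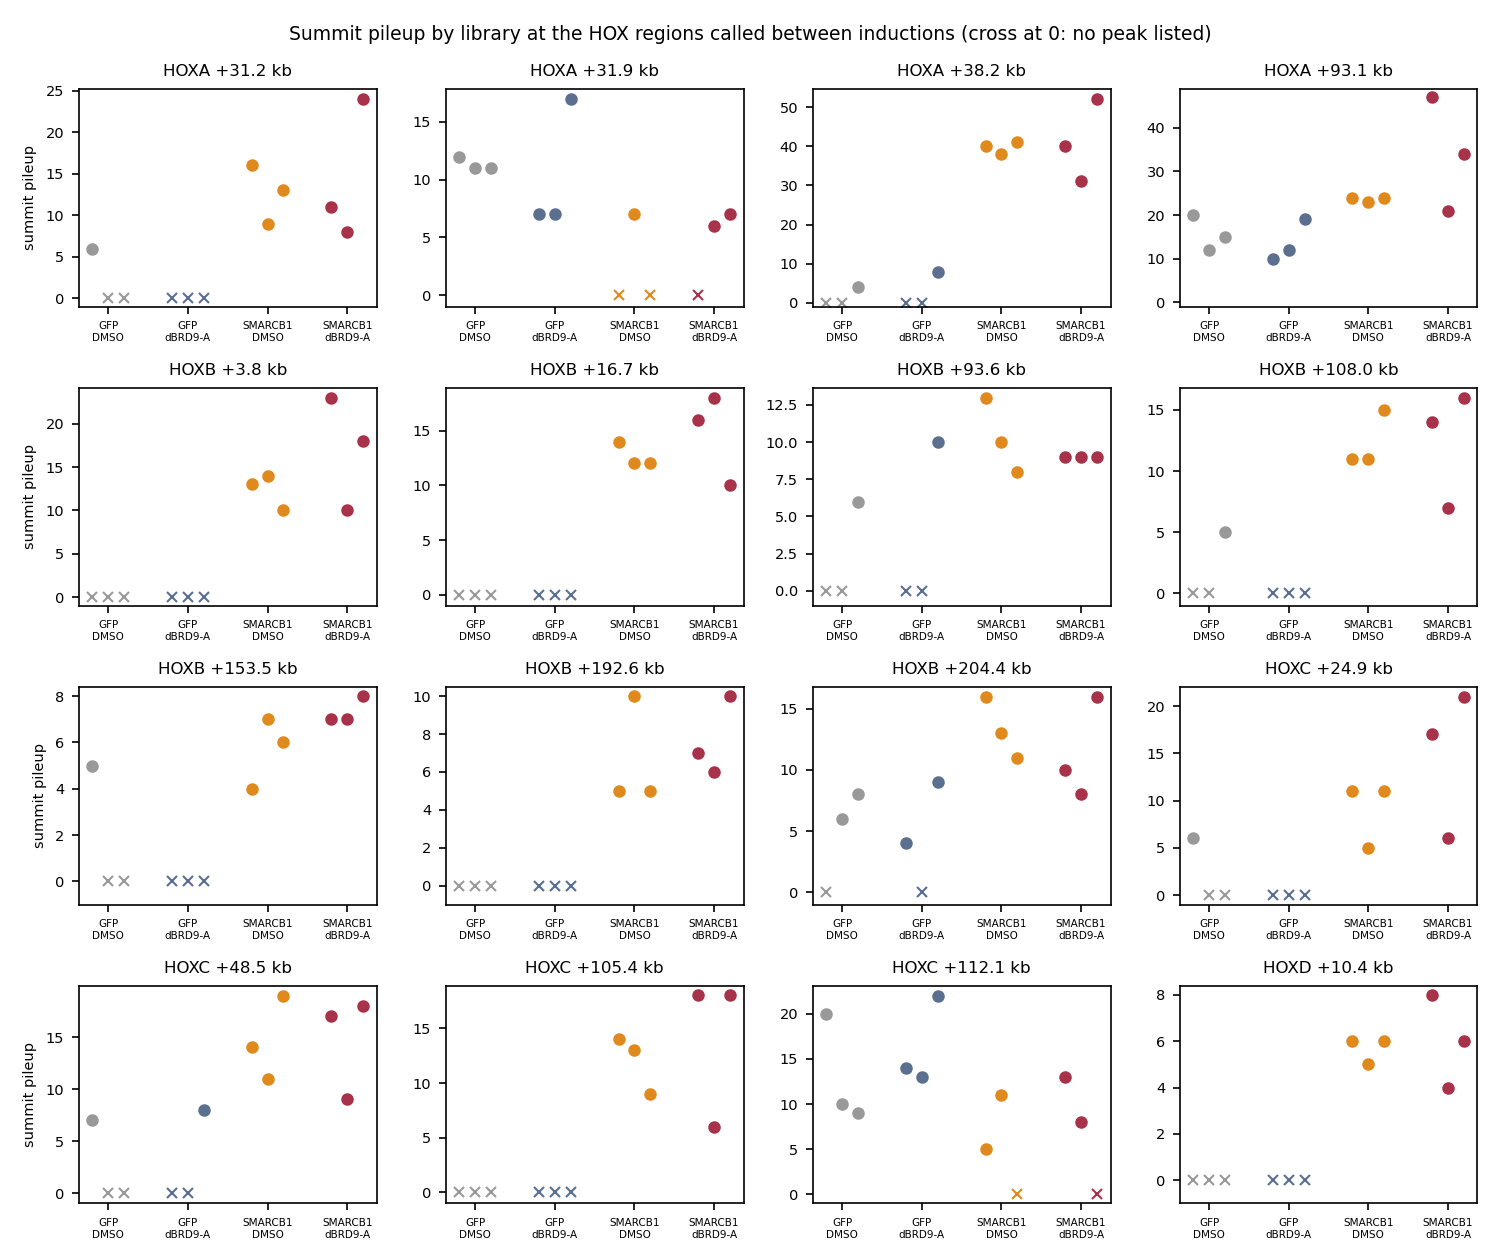
Summit pileup in each library at the 16 HOX regions called between inductions by presence or by presence and height, each panel named by cluster and kb from the start of its window; crosses at 0 mark libraries with no peak. In 14 panels the region was called higher in SMARCB1 libraries, with 0 GFP peaks in 5 of them. In 2 panels (HOXA at 31.9 kb, HOXC at 112.1 kb) it was called lower. The pileups shown are not scaled, and those of GFP and SMARCB1 peaks overlap in some panels.

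The 19 HOX regions found in all 12 libraries allowed a test of height alone. The highest by mean percentile of the authors' fold within the 12 lists were in HOXB, at 118.0 kb (chr17:46713853-46714197, percentile 98.2) and 160.0 kb (chr17:46755883-46756132, 96.6). The first had 40, 29 and 30 fragments in GFP DMSO, 28, 28 and 44 in GFP dBRD9-A, 28, 37 and 42 in SMARCB1 DMSO, and 48, 25 and 38 in SMARCB1 dBRD9-A libraries. HOXA was led by the region at 13.8 kb (chr7:27135595-27135910, percentile 93.4) with 22 to 36 fragments in GFP and 28 to 61 in SMARCB1 libraries. HOXC was led by the region at 10.5 kb (chr12:54332189-54332731, 92.6) with 28 to 61 fragments in GFP and 22 to 48 in SMARCB1 libraries. At these 3 regions the inductions overlapped. The next by the same rule were HOXA at 86.7 kb (88.6) and 48.6 kb (76.6), HOXB at 100.1 kb (87.2), and HOXC at 77.9 kb (87.7) and 89.9 kb (74.7). The HOXD pair stood lower, at 58.4 kb (chr2:177005258-177005481, 77.6) and 29.2 kb (chr2:176976069-176976270, 45.1), the latter with 2 to 11 fragments in any library.

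Summit pileups were compared on a log2 scale after subtraction of the library median over the 18114 regions in all 12 lists, with limma and Benjamini-Hochberg adjustment over those regions. Of the 19 HOX regions, 2 were higher and 2 lower in SMARCB1 libraries, against 7.81% and 5.2% of all tested regions. The median change of the 19 was −0.09, beside −0.08 over all 18114. HOXD and HOXC had no called region, with changes between −0.35 and −0.09.

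The HOXA region at 93.1 kb (chr7:27214900-27215316) had 20, 12 and 15 fragments in GFP DMSO, 10, 12 and 19 in GFP dBRD9-A, 24, 23 and 24 in SMARCB1 DMSO, and 47, 21 and 34 in SMARCB1 dBRD9-A libraries. Every SMARCB1 library stood above every GFP library. Scaled means were 0.881 ± 0.107 and 1.62 ± 0.367 (SD, n = 6 each), and the log2 change was 0.84 (SE 0.16, limma adjusted p 0.000265). The log2 change was 0.51 in DMSO (limma adjusted p 0.226; 0 HOX regions called, 3.72% higher and 1.71% lower among all tested) and 1.17 in dBRD9-A (0.000601; the 1 HOX region called, 4.68% higher and 1.24% lower among all tested), and the test of the difference between the 2 gave an adjusted p of 0.998. The HOXB region at 71.6 kb (chr17:46667449-46667724) had 18, 10 and 12, 7, 6 and 19, 29, 19 and 20, and 22, 18 and 15 fragments in the same order of groups, with some overlap. Its scaled means were 0.696 ± 0.174 and 1.195 ± 0.350 (SD, n = 6 each), a log2 change of 0.76 (SE 0.22, limma adjusted p 0.0140). Without SMARCB1 DMSO replicate 1 or SMARCB1 dBRD9-A replicate 2 its adjusted p was 0.0785 and 0.0516.

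Both regions that were lower lay in HOXA. The region at 48.6 kb (chr7:27170460-27170759) had 26, 10 and 14 fragments in GFP DMSO, 19, 16 and 32 in GFP dBRD9-A, 7, 10 and 12 in SMARCB1 DMSO, and 28, 10 and 11 in SMARCB1 dBRD9-A libraries. SMARCB1 dBRD9-A replicate 1, with 28, stood apart from the other 5 SMARCB1 libraries. The log2 change was −0.75 (SE 0.22, limma adjusted p 0.0171), and −0.59 (adjusted p 0.0715) without SMARCB1 dBRD9-A replicate 3. The region at 68.6 kb (chr7:27190542-27190666) had 21, 15 and 20 fragments in GFP DMSO, 13, 17 and 30 in GFP dBRD9-A, 13, 18 and 18 in SMARCB1 DMSO, and 13, 7 and 17 in SMARCB1 dBRD9-A libraries. Its log2 change of −0.56 (SE 0.19, limma adjusted p 0.0434) was not called without GFP DMSO replicate 3, GFP dBRD9-A replicate 2 or 3, SMARCB1 DMSO replicate 1, or SMARCB1 dBRD9-A replicate 1 or 2 (limma adjusted p 0.0654 to 0.128).

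Which regions were called depends on the scale, though the regions called above kept the sign of their change. When pileups were divided by the background pileup of their library instead, the median change of all regions moved from −0.08 to −0.65, and 0 of the 19 HOX regions were higher (2.70% of all tested) and 15 lower (67.6%). The HOXA region at 93.1 kb and the HOXB region at 71.6 kb then had log2 changes of 0.27 (limma adjusted p 0.195) and 0.18 (0.481), and those at 48.6 and 68.6 kb in HOXA −1.32 and −1.14. Which scale measures accessibility per cell was not tested.

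**Figure D4:**
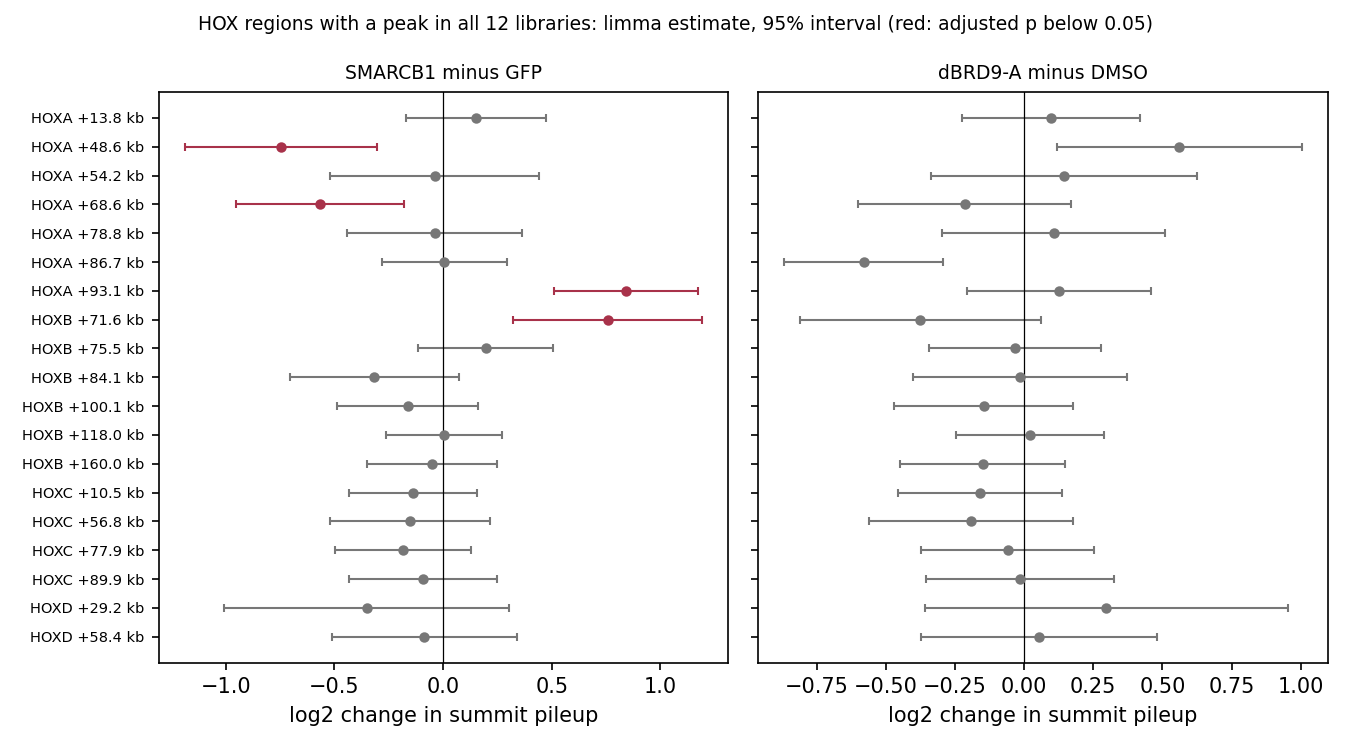
Log2 change in summit pileup with its 95% interval from limma at the 19 HOX regions found in all 12 libraries, for SMARCB1 minus GFP (left) and dBRD9-A minus DMSO (right), named by cluster and kb from the start of the window. On the left 2 regions lie above 0 and 2 below at an adjusted p under 0.05, and on the right none is called in this fit, which has no replicate block.

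With dBRD9-A, few HOX regions passed any rule. By presence, 0 HOX regions were called and 0 had an unadjusted exact permutation p below 0.05 in either direction (0.0475% and 0.017% of all tested regions); the lowest exact p was 0.08, and 0 regions of the genome were called. By presence and height, 0 of 112 HOX regions were called in either direction (0.0% of all tested), with 2 higher and 1 lower at an unadjusted exact permutation p below 0.05 (0.859% and 0.948%). One of the 2, named after its values were seen, was HOXC at 20.9 kb (chr12:54342858-54343015), with a peak in 6 of 6 dBRD9-A and 2 of 6 DMSO libraries. It had 9 fragments in 1 GFP DMSO library, 9, 7 and 12 in GFP dBRD9-A, 5 in 1 SMARCB1 DMSO library, and 12, 6 and 8 in SMARCB1 dBRD9-A, an exact permutation p of 0.005 and an adjusted p of 1.0. The smallest p of either exact permutation test is 0.005, so a region can be called only if a large share of all tested regions reaches it. The 0 calls with dBRD9-A were therefore nearly fixed by these tests. In GFP libraries 0 of 97 HOX regions were gained and 0 lost (0.359% and 0.32% of all regions). In SMARCB1 libraries 2 of 134 were gained (1.49%, against 0.301%) and 1 was lost (0.746%, against 0.269%). The gained regions were HOXA at 69.6 kb (chr7:27191595-27191694), with 8, 8 and 13 fragments in SMARCB1 dBRD9-A libraries, and HOXB at 58.3 kb (chr17:46654254-46654430), with 6, 6 and 8. GFP libraries had peaks in both: 8 fragments in GFP DMSO replicate 1 at the first, and 5 and 8 in 2 libraries at the second. The region lost was HOXD at 36.9 kb (chr2:176983757-176983961), with 5, 4 and 4 fragments in SMARCB1 DMSO libraries and 3 in GFP dBRD9-A replicate 3. All 3 had 13 fragments or fewer in any library, and none was counted once the lists were limited to −log10 q values of 5 or more.

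By height, limma without a replicate block called 0 of the 19 shared regions between treatments averaged over the inductions (0.0166% higher and 0.0442% lower among all tested), with 1 higher and 1 lower at an unadjusted p below 0.05 (3.05% and 3.28% of all tested). In HOXA, the region at 86.7 kb (chr7:27208646-27208798) had 56, 35 and 31 fragments in GFP DMSO, 16, 21 and 30 in GFP dBRD9-A, 39, 31 and 37 in SMARCB1 DMSO, and 34, 16 and 42 in SMARCB1 dBRD9-A libraries. Every GFP DMSO library stood above every GFP dBRD9-A library, and the SMARCB1 groups overlapped. Within GFP its scaled means were 2.41 ± 0.141 and 1.35 ± 0.131 (SD, n = 3 each), a log2 change of −0.85 (SE 0.20, limma adjusted p 0.0359), the only HOX region called there (0.127% higher and 0.359% lower among all tested). That call was lost without any one of the 6 GFP libraries, SMARCB1 DMSO replicate 2 or SMARCB1 dBRD9-A replicate 1, with adjusted p from 0.0553 to 0.184, and also without a variance trend, with summed pileups and on the background scale. The test of the difference between inductions gave an adjusted p of 0.998 for this region. With a replicate block, limma called this region lower with dBRD9-A over both inductions, as given further below. The labels do not say what a replicate number marks.

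In SMARCB1 cells limma called 0 of 19 regions (0.0% of all tested in either direction), with 1 higher and 0 lower at an unadjusted p below 0.05 (1.77% and 1.39% of all tested). A fit on the 6 SMARCB1 libraries alone, which takes in regions that appear after induction, called 0 of 35 HOX regions and 0 of 39492 in the genome, with 1 higher and 0 lower at an unadjusted p below 0.05 (1.18% and 1.12% of all tested). The difference of the treatment effect between inductions was called at 0 of 19 regions (0.00552% higher and 0.0% lower among all tested), with 0 higher and 1 lower at an unadjusted p below 0.05 (2.74% and 2.06% of all tested). That region was HOXD at 58.4 kb, with 16, 11 and 8 fragments in GFP DMSO, 9, 16 and 26 in GFP dBRD9-A, 17, 18 and 12 in SMARCB1 DMSO, and 13, 9 and 14 in SMARCB1 dBRD9-A libraries. The groups overlapped, and the log2 difference of −0.86 (95% interval −1.71 to −0.01) had a limma adjusted p of 0.998.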

How the data were processed

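ATAC-seq libraries of G401 cells were analysed from the 12 deposited peak lists, 1 per library, made from nucleosome-free fragments per the labels. Per the submitters' processing notes, BWA 0.7.12-r1039, SAMtools 1.2, bedtools 2.24.0, MACS2 2.1.1.20160309 and hg19 were used; settings are not given in the sources used here. The deposited lists give, as the authors' peak caller wrote them, an integer score (not used in a test), the fold enrichment over background (a ratio), the −log10 p and −log10 q, and the summit offset. From fold and −log10 p the whole summit pileup was recovered for 100% of peaks (tolerance 0.001).

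Groups came from the labels. Members, lists and tests were chosen with earlier results of these data known. Regions named are, per cluster, the 3 of highest mean fold percentile among those in all 12 lists, and those called, gained or lost (at most 10 per direction); other regions were named after their values were seen. Tests were fitted over the whole genome at an adjusted p below 0.05, with scipy 1.17.1 under Python 3.11.15 and limma 3.58.1 (mean-variance trend) under R 4.3.3, and were tested on simulated data. There limma recovered 70 of 200 regions changed 2-fold between SMARCB1 and GFP, among 18114, with 1 false call. Most changes of that size were thus missed in the simulated data, whose spread was set. In the real data limma called 1415 regions higher and 942 lower with SMARCB1, so the adjustment cuts elsewhere. The share of 2-fold changes missed there was not measured. Alternatives were lists of equal length, called peaks thinned to an equal background pileup, a −log10 q of at least 5, 50% cover, a rule of 2 of 3, other scalings, summed pileups, no variance trend, a replicate block and each library left out. A list of HOX cofactors and of Polycomb and Trithorax genes was not analysed here, as no GRCh37 annotation was used.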

Additional observations from a re-analysis of the deposited data

How the results depend on the processing

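Apart from leaving out libraries, 163 values were recomputed: 101 kept direction and call, 50 moved, 7 lost their call and 5 turned. Leaving out each library gave 288 values, of which 233 were kept, 38 moved and 17 lost their call. The cause was not tested where none is given. Counts of presence or limma calls, and of regions gained or lost, that stand here without a share over all regions are not read as a result about the HOX windows.

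In lists of equal length the difference in peaks per window, SMARCB1 minus GFP mean, turned from 5.83 to −3.67 in HOXA, 12.5 to −1.67 in HOXB, 4.17 to −3.67 in HOXC, 4.67 to −1.50 in HOXD and 27.2 to −10.5 in all. There presence called 1 of 47 HOX regions higher and 3 lower (9.0% and 2.44% of all tested). With SMARCB1, 3 were gained and 4 lost in DMSO, and 1 gained and 7 lost in dBRD9-A. With dBRD9-A, 1 was gained in GFP, and 0 gained and 0 lost in SMARCB1 cells.

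With called peaks thinned to an equal background pileup, which can only remove peaks, the differences in peaks were 2.83 in HOXA, 6.50 in HOXB, 3.33 in HOXD and 15.2 in all; presence called 0 higher (9 at an unadjusted exact permutation p below 0.05, 19.2% of all tested; lowest adjusted p 0.0501). With SMARCB1, 7 regions were gained in DMSO and 1 lost in dBRD9-A, and with dBRD9-A in SMARCB1 cells 1 was gained and 0 lost.

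With −log10 q of at least 5 the differences were 3.17 in HOXA and 2.50 in HOXD. Presence called 1 region lower, 1 was lost in DMSO and 1 in dBRD9-A with SMARCB1, and with dBRD9-A in SMARCB1 cells 0 were gained and 0 lost; limma called 1 higher and 1 lower with SMARCB1.

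At 50% cover presence called 0 higher (8 at an unadjusted p below 0.05, 17.0% of all tested), 2 regions were lost with SMARCB1 in DMSO, 7 gained with SMARCB1 in dBRD9-A, and 1 gained and 0 lost with dBRD9-A in SMARCB1 cells. By the rule of at least 2 of 3, SMARCB1 gained 26 and lost 3 in DMSO (27.5% and 1.64% of all regions) and gained 27 and lost 5 in dBRD9-A (26.3% and 1.62%), and dBRD9-A gained 4 and lost 1 in GFP (2.65% and 2.1%) and gained 6 and lost 5 in SMARCB1 cells (2.59% and 2.37%). Presence and height, added after the data had been seen, called 14 higher and 2 lower with SMARCB1 and 0 with dBRD9-A.

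Scaled by background pileup, limma called 0 higher and 15 lower with SMARCB1 (2.70% and 67.6% of all tested) and 0 lower with dBRD9-A in GFP cells. The last was also 0 without a variance trend and with summed pileups, and summed pileups left 1 lower with SMARCB1.

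Libraries share replicate numbers. The identifiers in the titles run consecutively within each number, but the labels do not say what a number marks. Deviations of same-numbered libraries correlated at 0.0483 to 0.226 (18 pairs, 10 above 0.1) and others at −0.171 to 0.0162, and all 12 libraries correlated best with their own number, a hint of pairing. With a replicate block presence called 0 higher (5 at an unadjusted exact permutation p below 0.05, 15.4% of all tested), since its lowest adjusted p was 0.201. Few arrangements are possible within blocks, so a call would need most tested regions to reach the smallest p. The 0 was thus nearly fixed by the test. In limma the block called 2 higher and 2 lower with SMARCB1, and 1 lower (HOXA at 86.7 kb) with dBRD9-A over both inductions, where none was called without it.

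Leaving out 1 library gave 5 to 8 presence calls higher (8 without GFP DMSO replicate 1). Regions gained with SMARCB1 ran from 11 to 18 in DMSO and 13 to 20 in dBRD9-A, and regions lost from 0 to 2 and 0 to 3. Gained and lost then ask for a peak in all remaining libraries of a group, so counts of them can only stay or rise. With dBRD9-A, 0 to 3 were gained and 0 to 1 lost in GFP cells (3 gained when GFP dBRD9-A replicate 2 was left out), and 2 to 5 gained and 1 to 4 lost in SMARCB1 cells (5 gained when SMARCB1 dBRD9-A replicate 2, and 4 lost when SMARCB1 DMSO replicate 1, was left out). limma called 1 to 2 higher (1 without SMARCB1 DMSO replicate 1 or SMARCB1 dBRD9-A replicate 2) and 1 to 2 lower with SMARCB1, and 0 to 1 lower with dBRD9-A in GFP cells. One lower call was lost without GFP DMSO replicate 3, GFP dBRD9-A replicate 2 or 3, SMARCB1 DMSO replicate 1, or SMARCB1 dBRD9-A replicate 1, 2 or 3. The GFP call was lost without any of the 6 GFP libraries, SMARCB1 DMSO replicate 2 or SMARCB1 dBRD9-A replicate 1.

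Absence of a weak peak from a shallow list is uncertain.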
